A study of Mus musculus with 14 samples.

Results

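Protease inhibitors of the cystatin and serpin families were followed in mouse dendritic cells that had been exposed to a cathepsin inhibitor, a maturation stimulus, or both. The set holds 8 listed genes, namely the cystatins Cst3, Cstb and Cst7, the serpins Serpinb1a, Serpinb2, Serpinb6b and Serpinb9, and Slpi, which belongs to neither family and carries the WAP fold. All 8 were bright enough to test, among 12192 tested genes of the 18193 with a probe set of their own on the array. Each gene is described by the single-gene probe set with the highest mean over the 14 arrays.

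The cells were BALB/c bone marrow progenitors grown for 8 days with recombinant GM-CSF and fed on days 3 and 6. Over 1 h they received the solvent DMSO (0.01%), the cathepsin L inhibitor CLIK148 or the cathepsin B inhibitor CA074Me (each inhibitor at 5 µM). They were then left without stimulus or given CpG oligonucleotide at 25 µg/mL, labelled pro-Th1, or TNF-alpha at 500 U/mL, labelled pro-Th2. The 7 groups were DMSO, CLIK148, CA074Me, DMSO with CpG, DMSO with TNF-alpha (TNF below), CLIK148 with CpG, and CA074Me with TNF. Each group had 1 array from each of 2 independent experiments. The replicate number in the sample titles was read as the number of the experiment, which the titles do not state. CLIK148 was never combined with TNF nor CA074Me with CpG. How long the cells stayed with the stimulus before harvest was not stated in the labels. RNA came from whole cultures, so a change in the share of a cell type and a change in RNA per cell cannot be told apart.

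Cystatins are tight-binding inhibitors of papain-like cysteine proteases, the group to which cathepsins B, L, S and C belong. Serpins trap their protease, usually a serine protease, by a conformational change that follows cleavage of an exposed loop, and the clade B serpins act mainly inside the cell. In dendritic cells, lysosomal cathepsins cut antigens and the invariant chain, while intracellular serpins can guard the cell against granzymes and leaked granule proteases.

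Serpinb9 and Serpinb6b were higher in stimulated than in unstimulated cells. All 8 stimulated arrays lay above all 6 unstimulated arrays for both genes, with a gap of 0.59 log2 for Serpinb9 and 0.43 log2 for Serpinb6b. The share of all tested genes separated in this way was not computed. In solvent alone, 16.6% of genes were higher without overlap for CpG and 14.3% for TNF. Serpinb2 was higher in stimulated cells within each experiment, and Cst7 and Slpi were clearly separated in experiment 1 alone. Cst3, Cstb and Serpinb1a stayed within a narrow range. The size of the responses differed between the experiments. The planned test called 0 of the 8 genes for either stimulus, in solvent or after an inhibitor. It also called 0 of the 8 for either cathepsin inhibitor, where 0% of all tested genes were called.

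**Figure D1:**
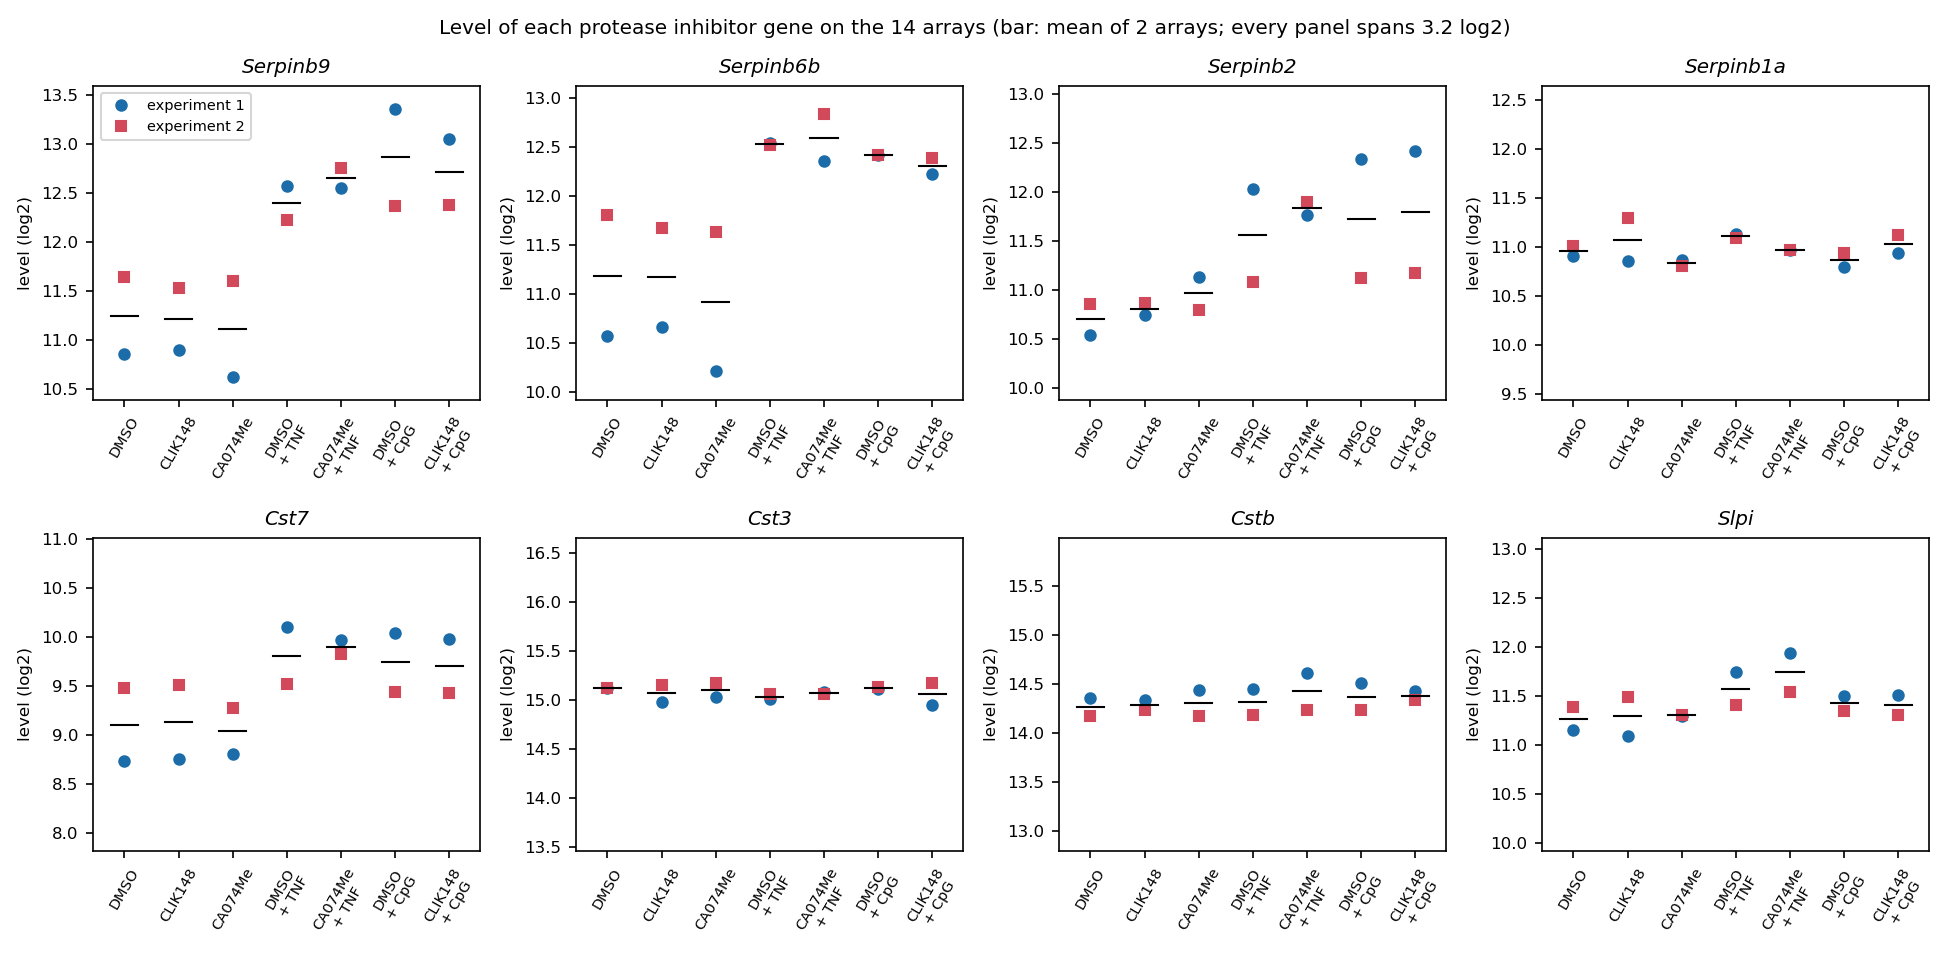
Level (log2) of each of the 8 genes on each of the 14 arrays, by treatment group. Circles are experiment 1, squares experiment 2 and bars the mean of 2 arrays, and every panel spans the same log2 range. Serpinb9 and Serpinb6b separate the 8 stimulated from the 6 unstimulated arrays, while Cst3 and Cstb lie nearly flat.

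The 4 genes with the largest responses varied together across the arrays, but they were chosen from these data for those responses. Their 5′ windows are shown as description only. Each runs from 250 bases before to 50 after an annotated transcription start (RefSeq, GRCm38.p6), printed 5′ to 3′ on the gene's strand, and all 4 genes lie on the plus strand. Serpinb9 is at chr13:33004291-33004590, Serpinb6b at chr13:32965011-32965310, Serpinb2 at chr1:107511173-107511472 and Cst7 at chr2:150570165-150570464. Capitals mark a match to 1 of 4 searched motifs: the interferon-stimulated response element core GAAANNGAAA (ISRE), the AP-1 site TGANTCA, the E-box CACGTG and the NF-kB consensus.
Serpinb9: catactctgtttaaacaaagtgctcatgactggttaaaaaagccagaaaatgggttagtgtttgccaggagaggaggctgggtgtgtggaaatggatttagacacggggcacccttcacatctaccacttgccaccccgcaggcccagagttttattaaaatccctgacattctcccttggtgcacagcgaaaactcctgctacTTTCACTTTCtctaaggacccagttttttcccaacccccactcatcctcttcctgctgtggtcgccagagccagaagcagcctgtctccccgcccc
Serpinb6b: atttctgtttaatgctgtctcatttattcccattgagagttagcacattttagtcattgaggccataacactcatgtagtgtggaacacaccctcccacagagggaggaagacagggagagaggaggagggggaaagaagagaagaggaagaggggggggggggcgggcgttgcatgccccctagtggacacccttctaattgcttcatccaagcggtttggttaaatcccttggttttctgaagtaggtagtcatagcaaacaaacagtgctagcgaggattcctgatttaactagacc
Serpinb2: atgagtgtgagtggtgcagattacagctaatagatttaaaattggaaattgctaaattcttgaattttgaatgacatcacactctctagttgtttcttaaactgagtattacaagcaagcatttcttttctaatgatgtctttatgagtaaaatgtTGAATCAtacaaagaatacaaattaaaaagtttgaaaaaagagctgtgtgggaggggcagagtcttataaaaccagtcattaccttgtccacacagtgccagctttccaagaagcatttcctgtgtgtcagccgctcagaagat
Cst7: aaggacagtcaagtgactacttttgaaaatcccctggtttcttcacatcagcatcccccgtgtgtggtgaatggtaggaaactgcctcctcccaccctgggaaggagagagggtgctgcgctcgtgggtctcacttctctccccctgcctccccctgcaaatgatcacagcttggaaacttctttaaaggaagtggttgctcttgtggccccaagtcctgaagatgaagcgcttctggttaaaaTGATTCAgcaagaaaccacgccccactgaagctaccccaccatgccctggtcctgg
The Serpinb9 window holds the ISRE core on its minus strand, with its first printed base 46 bases before the start, a motif found in 3.44% of 32851 promoter windows of the same length. Serpinb2 has an AP-1 match 94 bases and Cst7 one 6 bases before the start, and 7.81% of all windows hold that motif. From a second annotated Serpinb2 start the same site lies 181 bases upstream. The Serpinb6b window matched none of the 4 motifs, and the NF-kB consensus, present in 8.46% of all windows, was absent from all 4 windows shown. Motifs were searched on both strands, and no window shown holds more than 1 match. Of the other members, Slpi has an E-box 146 bases before its start (7.15% of all windows) and Cst3 has no match. No window was available for Cstb or Serpinb1a in the promoter set searched. Serpinb9, Serpinb6b and Serpinb1a all lie on chromosome 13, Cst3, Cst7 and Slpi on chromosome 2, Cstb on chromosome 10 and Serpinb2 on chromosome 1.

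Serpinb9, the granzyme B inhibitor, had the largest response to CpG among the members. In experiment 1 its level was 10.86 log2 in DMSO, 10.90 in CLIK148 and 10.63 in CA074Me, against 12.58 in DMSO with TNF, 12.56 in CA074Me with TNF, 13.36 in DMSO with CpG and 13.06 in CLIK148 with CpG. In experiment 2 the same groups stood at 11.64, 11.53 and 11.60 without stimulus and at 12.23, 12.75, 12.38 and 12.38 with it. The lowest stimulated array thus exceeded the highest unstimulated one in each experiment and across both. Ordered by mean, CA074Me, CLIK148 and DMSO overlapped one another at the bottom, and DMSO with TNF, CA074Me with TNF, CLIK148 with CpG and DMSO with CpG overlapped their neighbours at the top. The step of 1.15 log2 between DMSO and DMSO with TNF was the 1 step in this order where neighbouring groups did not overlap. A second Serpinb9 probe set gave responses of 1.53 log2 to CpG and 1.21 log2 to TNF.

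In cells pretreated with solvent, the mean of Serpinb9 was 1.62 log2 higher with CpG (SE 0.45, 95% confidence interval 0.60 to 2.63), or 3.07-fold. In the limma model of 7 groups, which was the planned test and has 7 residual degrees of freedom, its adjusted p was 0.110. Adding the replicate number, read as that of the experiment, as a block lowered the adjusted p of limma to 0.0361. The difference was 2.50 log2 in experiment 1 and 0.73 log2 in experiment 2. After CLIK148 the CpG difference of Serpinb9 was 1.5 log2, with adjusted p = 0.150 in limma and 0.0499 with the block. The TNF difference was 1.15 log2 in solvent (adjusted p = 0.589, 0.191 with the block) and 1.54 log2 after CA074Me (0.174 and 0.0584, all limma).

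Serpinb6b, a mouse clade B serpin, had the largest mean response to TNF among the members, in solvent and after CA074Me. Without stimulus it measured 10.57 log2 in DMSO, 10.66 in CLIK148 and 10.21 in CA074Me in experiment 1, and 11.80, 11.67 and 11.63 in experiment 2. With stimulus it measured 12.53 in DMSO with TNF, 12.35 in CA074Me with TNF, 12.41 in DMSO with CpG and 12.22 in CLIK148 with CpG in experiment 1, and 12.52, 12.83, 12.41 and 12.38 in experiment 2. The stimulated arrays of both experiments thus reached similar levels from unstimulated levels that lay apart. The gap of 1.12 log2 from DMSO, the highest unstimulated group mean, to CLIK148 with CpG, the lowest stimulated one, involved no overlap. The next 2 steps in the order of means, to DMSO with CpG and to DMSO with TNF, were 0.11 log2 each and also without overlap. CpG in solvent gave 1.23 log2 (SE 0.52, 95% confidence interval 0.05 to 2.41, 2.35-fold), with a limma adjusted p of 0.257, or 0.0406 with the block. TNF after CA074Me gave 1.67 log2 (3.19-fold), with a limma adjusted p of 0.207, or 0.0191 with the block. TNF in solvent gave 1.34 log2 (0.584, 0.0781 with the block) and CpG after CLIK148 1.14 log2 (0.314, 0.0547 with the block), so neither passed in either limma fit.

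Serpinb2, also called plasminogen activator inhibitor 2, inhibits urokinase. Its unstimulated levels were 10.54, 10.75 and 11.14 log2 in DMSO, CLIK148 and CA074Me of experiment 1, and 10.86, 10.87 and 10.80 in experiment 2. With stimulus, experiment 1 gave 12.03 in DMSO with TNF, 11.77 in CA074Me with TNF, 12.34 in DMSO with CpG and 12.43 in CLIK148 with CpG, and experiment 2 gave 11.09, 11.91, 11.12 and 11.18. The stimulated arrays exceeded the unstimulated ones of the same experiment by at least 0.63 log2 in experiment 1 and 0.22 log2 in experiment 2, and 6 of 8 exceeded all unstimulated arrays. In experiment 2 the array of CA074Me with TNF stood above the other stimulated arrays. CpG in solvent gave 1.03 log2 (SE 0.49, 95% confidence interval -0.07 to 2.13), with a limma adjusted p of 0.305, or 0.0944 with the block. CpG after CLIK148 gave 0.99 log2 (0.341, 0.110 with the block). TNF gave 0.86 log2 in solvent (0.779, 0.261 with the block), made of 1.49 and 0.23, and 0.87 log2 after CA074Me (0.549, 0.201 with the block), made of 0.63 and 1.10.

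Serpinb1a, an inhibitor of neutrophil elastase and cathepsin G, ranged from 10.79 to 11.29 log2 over the 14 arrays. Its highest array was CLIK148 in experiment 2 and its lowest DMSO with CpG in experiment 1. CpG in solvent gave -0.09 log2 and TNF in solvent 0.16 log2, and neither passed the limma test. A second Serpinb1a probe set, at 8.12 to 8.86 log2, gave -0.09 log2 for CpG and 0.26 for TNF. For CLIK148 alone it gave 0.28 log2 against 0.12 for the chosen set, and for CA074Me alone 0.04 against -0.12. Its neighbouring groups in the order of means all overlapped.

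Cst7 encodes cystatin F, which is sorted to endolysosomes and is known to act on cathepsin C. In experiment 1 it measured 8.74 log2 in DMSO, 8.76 in CLIK148 and 8.81 in CA074Me, against 10.10 in DMSO with TNF, 9.97 in CA074Me with TNF, 10.05 in DMSO with CpG and 9.98 in CLIK148 with CpG. In experiment 2 it measured 9.48, 9.51 and 9.28 without stimulus and 9.53, 9.83, 9.44 and 9.43 with it. The groups were 1.16 log2 apart in experiment 1, whereas in experiment 2 only the 2 TNF arrays exceeded the unstimulated ones. The mean CpG difference in solvent was 0.64 log2 (SE 0.37, limma adjusted p = 0.398, 0.239 with the block), made of 1.31 log2 in experiment 1 and -0.04 in experiment 2. TNF in solvent gave 0.71 log2, made of 1.36 and 0.05 log2 (limma adjusted p = 0.771, 0.314 with the block). CpG after CLIK148 gave 0.57 log2 (0.453 and 0.290) and TNF after CA074Me 0.86 log2 (0.393 and 0.175, all limma), the latter made of 1.16 and 0.55 log2.

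Cst3, the secreted cystatin C, and Cstb, the cytosolic stefin B, varied little. Cst3 lay between 14.94 and 15.17 log2 on all 14 arrays, and Cstb between 14.18 and 14.62. By mean level they stood at percentiles 99.97 and 99.60 of all measured genes. Whether a signal so near the top of the array's range could hide a response was not tested. The largest stimulus difference of Cst3 in solvent was -0.09 log2 with TNF, and that of Cstb was 0.10 log2 with CpG. A second Cstb probe set gave 0.08 log2 for both stimuli. Every neighbouring pair of groups overlapped for both genes.

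Slpi, the secretory leukocyte protease inhibitor, blocks elastase and cathepsin G. In experiment 1 it measured 11.15, 11.09 and 11.30 log2 in DMSO, CLIK148 and CA074Me, then 11.74 in DMSO with TNF, 11.94 in CA074Me with TNF, 11.49 in DMSO with CpG and 11.51 in CLIK148 with CpG. In experiment 2 it measured 11.39, 11.49 and 11.30 without stimulus and 11.40, 11.54, 11.35 and 11.31 with it. Its stimulated arrays were all higher in experiment 1, by at least 0.20 log2, and 1 of 4 was in experiment 2. TNF gave 0.30 log2 in solvent and 0.44 log2 after CA074Me, with limma adjusted p of 0.803 and 0.378. CpG gave 0.15 log2 in solvent and 0.12 log2 after CLIK148 (0.690 and 0.774).

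Over the members as a whole, the planned limma fit called 0 of 8 in CpG against solvent, where 1.92% of all tested genes were called, and 2 of 8 had an unadjusted p under 0.05 (18.2% of genes). With the block it called Serpinb9 and Serpinb6b, both higher, against 6.18% of genes called higher, and 3 of 8 had an unadjusted p under 0.05 (37.3% of genes). For TNF in solvent it called 0 of 8 (0.115% of all genes) and 0 with the block (3.11%), with 2 at an unadjusted p under 0.05 in each fit (7.21% and 20.5% of genes). After CLIK148, CpG called 0 of 8 (0.812%) and Serpinb9 alone with the block (4.03% of genes higher), with 1 and 3 at an unadjusted p under 0.05 (16.6% and 36% of genes). After CA074Me, TNF called 0 of 8 (1.3%) and Serpinb6b alone with the block (4.96% higher), with 4 and 4 at an unadjusted p under 0.05 (12.1% and 26.6% of genes).

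The median difference of the 8 members was 0.39 log2 for CpG and 0.50 log2 for TNF in solvent, beside -0.05 log2 for all tested genes in both comparisons. These comparisons share the same DMSO arrays, so their likeness is not independent. Groups did not overlap, with the stimulus higher, for 3 members under CpG (16.6% of all genes) and 6 under TNF (14.3% of all genes). The 3 were Serpinb9, Serpinb6b and Serpinb2, joined under TNF by Cst7, Slpi and Serpinb1a. CpG and TNF were also compared directly in solvent. Serpinb9 was 0.46 log2 higher with CpG (95% confidence interval -0.55 to 1.48) and the other members differed by -0.25 to 0.17 log2. In limma 0 of 8 passed, with 0 at an unadjusted p under 0.05 (6.34% of genes) and 0 with the block, and 0.0082% of all genes were called (0.435% with the block).

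An added limma model, chosen after seeing the data, estimated each response separately in each experiment over the solvent and inhibitor cultures, with a term for each inhibitor. Within an experiment, 3 unstimulated cultures stood against 2 with CpG or 2 with TNF, so its p-values cover the spread between parallel cultures of 1 experiment only. In experiment 1 CpG raised Serpinb9 by 2.43 log2 (SE 0.13, 5.39-fold), Serpinb6b by 1.80 (SE 0.12), Serpinb2 by 1.64 (SE 0.17), Cst7 by 1.24 (SE 0.09) and Slpi by 0.35 (SE 0.08). These were 5 of 8 members, where 18.4% of all genes were called higher in limma. In experiment 2 it raised Serpinb9 by 0.80 log2 (1.74-fold) and Serpinb6b by 0.66, 2 of 8 against 9.59% of genes. Serpinb2 gave 0.38 log2 there with a limma adjusted p of 0.124, and without the experiment 1 array of either TNF group it passed at 0.0352.

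**Figure D2:**
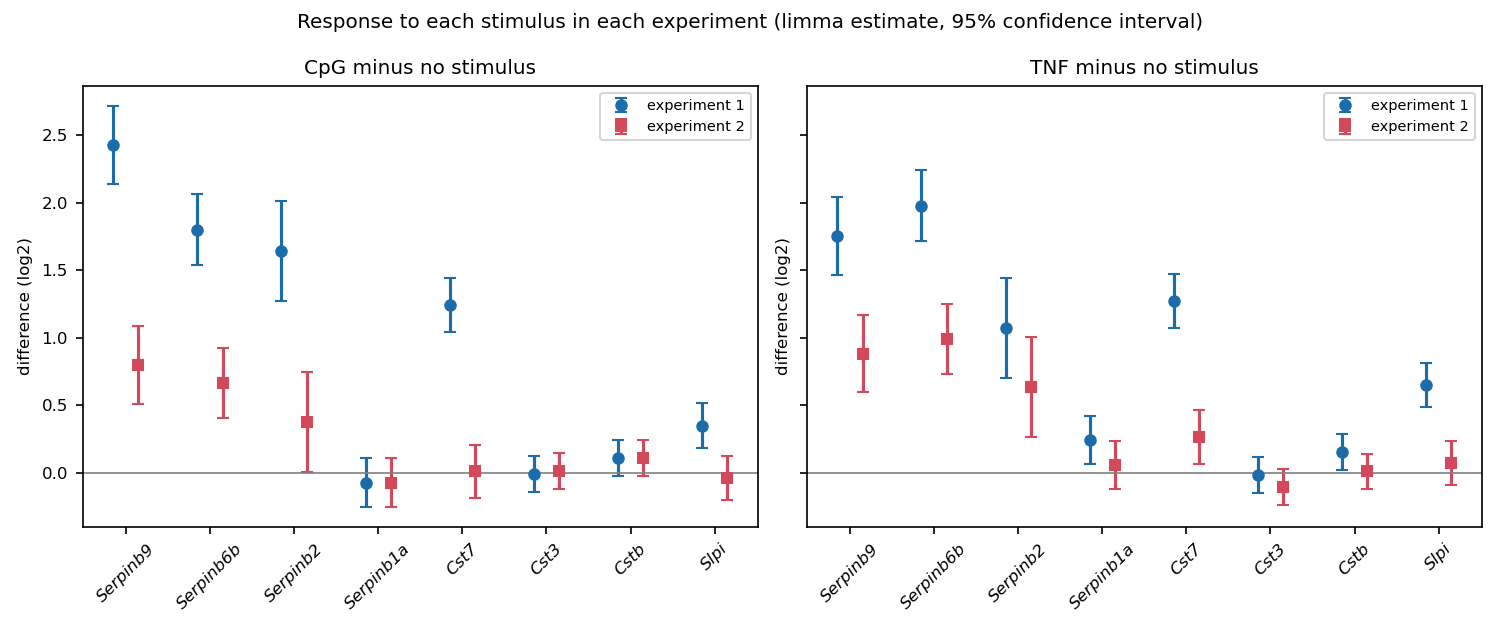
Difference from unstimulated cells (log2) for CpG and for TNF in each experiment, from the limma model of stimulus by experiment. Points are estimates and bars 95% confidence intervals from the spread between parallel cultures. Serpinb9 responds to CpG by 2.43 log2 in experiment 1 and 0.80 in experiment 2, and Cst7 by 1.24 and 0.01.

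TNF in experiment 1 raised Serpinb6b by 1.98 log2 (3.94-fold), Serpinb9 by 1.75, Cst7 by 1.27, Serpinb2 by 1.07 and Slpi by 0.65. Serpinb1a was the sixth member called, at 0.24 log2 with a limma adjusted p of 0.0322. Its call was lost without the experiment 1 array of DMSO, CLIK148, DMSO with TNF or CA074Me with TNF, at adjusted p of 0.0514 to 0.208. Among all genes 12.5% were called higher. In experiment 2 TNF raised Serpinb6b by 0.99 log2, Serpinb9 by 0.88 and Serpinb2 by 0.64, 3 of 8 against 8.05% of genes. Without the array of CA074Me with TNF, Serpinb2 gave 0.29 log2 (limma adjusted p = 0.347), and without that of CA074Me alone it gave 0.47 (0.113). The same omission of CA074Me with TNF left Serpinb9 at 0.57 log2 and still called. Cst7 gave 0.26 log2 there (adjusted p = 0.0550), and 0.47 (0.00179) without the array of DMSO with TNF.

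The experiments were then compared directly in the same limma model. The CpG response was larger in experiment 1 for Serpinb9 by 1.63 log2, for Serpinb2 by 1.27, for Cst7 by 1.23, for Serpinb6b by 1.14 and for Slpi by 0.39. These 5 of 8 members stood beside 11.5% of all genes called larger in experiment 1. The TNF response was larger in experiment 1 for Cst7 by 1.01 log2, for Serpinb6b by 0.99, for Serpinb9 by 0.87 and for Slpi by 0.58, 4 of 8 beside 1.25% of all genes. For Serpinb2 the TNF difference of 0.44 log2 was not called.

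Part of the contrast between experiments lay in the unstimulated cells. There experiment 2 was higher than experiment 1 for Serpinb6b by 1.22 log2, for Serpinb9 by 0.80, for Cst7 by 0.65 and for Slpi by 0.21, 4 of 8 members where limma called 24.1% of genes higher. Cstb was lower there by 0.18 log2, the 1 member of 8 called lower beside 12% of genes. Serpinb2 differed there by 0.03 log2 and was not called. In CpG-stimulated cells experiment 2 was lower by 1.23 log2 for Serpinb2, by 0.83 for Serpinb9 and by 0.58 for Cst7, so the order turned for Serpinb9 and Cst7. Serpinb6b gave 0.08 log2 and Slpi -0.17 log2, neither called. Cstb was lower by 0.18 log2, the fourth of 4 members called lower beside 14.9% of genes. In TNF-stimulated cells Slpi was lower in experiment 2 by 0.37 log2, Cst7 by 0.36 and Cstb by 0.32, 3 of 8 beside 11.5% of genes. Serpinb6b and Serpinb9 were not called there.

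Several of these smaller calls rested on single arrays. Slpi in unstimulated cells was not called without the DMSO or CLIK148 array of either experiment (0.13 to 0.22 log2, limma adjusted p 0.0591 to 0.164). Cstb in unstimulated cells was not called without DMSO of experiment 1 or either CA074Me array (-0.18 to -0.14 log2, 0.0582 to 0.0986), nor in CpG-stimulated cells without either array of DMSO with CpG (-0.11 and -0.13 log2). Cst7 in TNF-stimulated cells was not called without either array of DMSO with TNF (-0.27 and -0.16 log2), and was -0.56 log2 without CA074Me with TNF of experiment 2. With that last array left out Serpinb9 was lower in experiment 2 by 0.39 log2 after TNF, and called.

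Levels of cell type markers also differed between the experiments. The 10 dendritic cell markers, all measured and tested, averaged 11.90 to 12.00 log2 in unstimulated cells of experiment 1 and 12.21 to 12.24 in experiment 2, and 12.04 to 12.20 and 12.30 to 12.42 in stimulated cells. The 4 eosinophil markers averaged 10.19 to 10.28 log2 against 8.66 to 8.90 without stimulus, and 10.35 to 10.58 against 8.70 to 8.77 with it. Granulocyte markers, of which 8 of 10 were measured, averaged 12.26 to 12.40 log2 against 12.01 to 12.26 in unstimulated cells, and 12.32 to 12.46 against 12.05 to 12.21 in stimulated cells. Macrophage markers (8 of 9) averaged 11.98 to 12.05 against 11.86 to 11.92 log2 without stimulus, and 11.46 to 11.64 against 11.47 to 11.64 with it. The average of this list was thus lower in stimulated arrays in both experiments, but its members did not all move together. With CpG in solvent C1qa went from 12.08 to 10.57 log2, and C1qb, C1qc, Csf1r and Adgre1 were also lower. Cd14 (13.69 to 14.03), Fcgr1 (11.30 to 11.87) and Mertk (8.62 to 8.81) were higher. The dendritic cell markers also moved both ways with CpG in solvent. Ccr7 (12.87 to 14.04), Cd80 (10.51 to 11.23) and Cd86 (12.30 to 12.93) were higher. Cd74, H2-Ab1, H2-Aa and Zbtb46 were higher by less. Itgax (11.64 to 11.37), Ciita (11.02 to 10.69) and Flt3 (8.57 to 8.41) were lower. Mast cell and basophil markers (6 of 7) averaged 9.59 to 9.61 against 9.63 to 9.99 log2 without stimulus, and 9.86 to 9.91 against 9.81 to 9.92 with it. Lymphocyte markers (6 of 8) averaged 7.30 to 7.37 against 7.47 to 7.56 log2 without stimulus and 7.40 to 7.42 against 7.55 to 7.57 with it. Erythroid and stromal markers (6 of 8) averaged 7.10 to 7.13 against 7.14 to 7.19 log2 and 7.11 to 7.16 against 7.14 to 7.23. Both lists lay around or below the array's median of 7.52. The part of these differences in the members' levels and responses was not tested.

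Averaging the responses over solvent and inhibitor cultures, also chosen after seeing the data, called Serpinb9 with CpG without any block. It was 1.56 log2 higher (SE 0.32, 2.94-fold, limma adjusted p = 0.0166), 1 of 8 members where 4.58% of genes were called higher. With the block Serpinb6b (1.18 log2, 0.00624) and Serpinb2 (1.01 log2, 0.0190) were called beside Serpinb9 (0.00524), 3 of 8 against 11.7% of genes. For TNF, 0 of 8 were called without the block, where 1.91% of genes were. With it limma called Serpinb6b (1.51 log2, 0.00411) and Serpinb9 (1.35 log2, 0.0172), against 7.16% of genes. The averaged solvent and inhibitor responses come from the same 2 experiments, yet both limma fits count them as independent. Their p-values can therefore be too small where a response differed between the experiments, as that of Serpinb9 to CpG did.

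Cathepsin inhibition was compared at matched dose, 5 µM, and matched stimulus, in 2 comparisons with the solvent in unstimulated cells, 1 between the inhibitors, 2 under a stimulus and 2 tests of interaction. With CLIK148 alone the 8 members differed from solvent by -0.06 to 0.12 log2, with confidence intervals reaching from -1.19 to 1.21. With CA074Me alone they differed by -0.26 log2 for Serpinb6b to 0.27 log2 for Serpinb2, with intervals reaching from -1.44 to 1.37. Limma called 0 of 8 members in each, with and without the block, where 0% of all genes were called, and 0 members had an unadjusted p under 0.05 (0.0984% of genes for CLIK148 and 0.55% for CA074Me). The inhibitors differed from each other by -0.16 log2 for Serpinb2 to 0.25 log2 for Serpinb6b (interval -0.93 to 1.42), again with 0 of 8 called (0% of genes) or under an unadjusted 0.05 (0.476%). In the planned fit, which does not pair the experiments, the Serpinb9 interval was -1.05 to 0.98 log2 with CLIK148 and -1.15 to 0.88 with CA074Me. For Serpinb6b it was -1.19 to 1.16 and -1.44 to 0.91. With the block the intervals were -1.04 to 0.98 and -1.15 to 0.87 log2 for Serpinb9. Those of Serpinb6b were narrower with the block, at -0.82 to 0.78 and -1.06 to 0.53 log2. In the added model, which takes 1 effect of each inhibitor over both stimulus states and both experiments, Serpinb9 differed by -0.25 to 0.17 log2 (95% interval) with CLIK148 and -0.18 to 0.24 with CA074Me. Serpinb6b had intervals of -0.21 to 0.17 and -0.31 to 0.07 log2 in that model, and Serpinb1a, with 0.01 to 0.27 log2 for CLIK148, had a limma adjusted p of 0.963. These intervals bound the differences and do not show that the compounds act alike. In the planned fit those of Cst3 were narrower, -0.27 to 0.16 log2 for CLIK148 and -0.23 to 0.19 log2 for CA074Me.

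**Figure D3:**
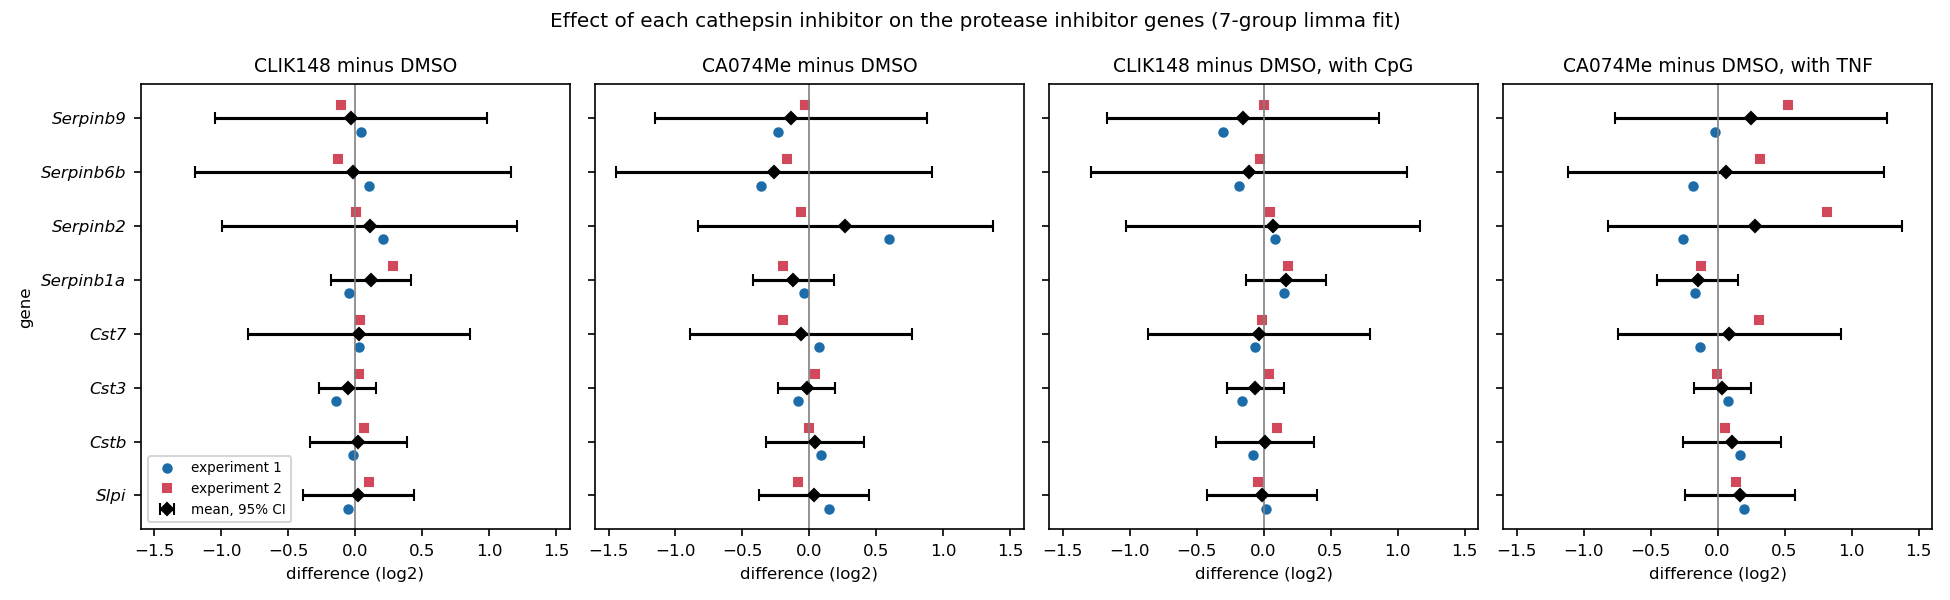
Difference (log2) between inhibitor and solvent cultures for each gene, without stimulus or with CpG or TNF. Diamonds are limma means with 95% confidence intervals from the planned fit without the block, circles experiment 1 and squares experiment 2. All intervals include 0, and the mean differences lie between -0.26 and 0.28 log2.

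Under CpG, CLIK148 shifted Serpinb9 by -0.15 log2 (95% confidence interval -1.17 to 0.86), made of -0.31 in experiment 1 and 0.00 in experiment 2. Under TNF, CA074Me shifted Serpinb2 by 0.28 log2 (interval -0.82 to 1.38), made of -0.26 and 0.82 log2, and Serpinb9 by 0.25 log2, made of -0.02 and 0.52. The experiments therefore went opposite ways for Serpinb2 under TNF, whereas Serpinb9 hardly differed in experiment 1. Serpinb6b (-0.18 and 0.31 log2) and Cst7 (-0.13 and 0.31) also had opposite signs in this comparison. Limma called 0 of 8 members in both comparisons, with 0 at an unadjusted p under 0.05 (0.558% and 0.804% of genes) and 0 with the block. Among all genes 0.0% were called in both, and 0.0082% for CA074Me under TNF with the block. The interaction of CLIK148 with CpG ranged from -0.12 to 0.05 log2 over the members, and that of CA074Me with TNF from -0.03 to 0.39 log2, the highest being Serpinb9 (interval -1.05 to 1.82). Limma called 0 members and 0% of genes for either interaction, with or without the block, with 0 members at an unadjusted p under 0.05 (0.123% and 0.656% of genes).

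Across the 14 arrays, after each gene was centred on its experiment's mean, the responsive members varied together. Pearson's r was 0.961 between Serpinb6b and Serpinb9, 0.937 between Cst7 and Serpinb6b and 0.930 between Serpinb2 and Serpinb9. Slpi correlated with Cst7 at 0.852, and Cst3 at -0.33 to 0.32 with the others. These values describe 14 arrays that share their stimulus groups and their normalisation. The genes most like Serpinb9 were Samsn1 (0.994), the mitochondrial superoxide dismutase Sod2 (0.993) and the itaconate-forming enzyme Acod1 (0.991). Those most like Serpinb6b were the maturation marker Cd83 (0.984), haptoglobin Hp (0.982) and Nudt17 (0.980). Cst7 was nearest to Olr1 (0.977), Lcn2 (0.976) and Adhfe1 (0.970), Serpinb2 to the elongation factor Ell2 (0.964), Pcdh7 (0.961) and Rnf115 (0.959), and Slpi to Rab38 (0.970), Lalba (0.947) and Bst1 (0.946).

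For the members that hardly varied the nearest genes were less close. Cst3 was nearest to the ribosomal protein gene Rpl7a (0.934), Wfdc17 (0.918) and the class II gene H2-Aa (0.916). Cstb was nearest to Rtn4 (0.932), Rpl7 (0.894) and S100a9 (0.888), and Serpinb1a to Olfm4 (0.885), Chil3 (0.859) and Gata2 (0.837). Centred values of Cst3 span only 0.18 log2 and those of Cstb 0.28, so these likenesses rest on small differences.

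Related inhibitors gave few calls, as did all tested genes. The planned limma fit called 1.92% of all genes for CpG in solvent and 0.115% for TNF. An unadjusted p under 0.05 was met by 18.2% and 7.21% of all genes. Of 23 other clade B serpins 5 were tested, and 0 passed limma for either stimulus in solvent with or without the block (1 at an unadjusted p under 0.05 for CpG and 0 for TNF). Their median difference was 0.08 log2 for CpG and 0.14 log2 for TNF, beside -0.05 for all tested genes. The largest was Serpinb9b, a close relative of Serpinb9. It measured 8.22 and 8.83 log2 in DMSO, 10.02 and 9.12 in DMSO with CpG, and 9.31 and 9.05 in DMSO with TNF, in experiments 1 and 2. Its CpG difference was 1.04 log2 (SE 0.39, limma adjusted p = 0.206, 0.0857 with the block), and its groups did not overlap. With TNF it differed by 0.66 log2. Serpinb1b followed with 0.45 log2 for CpG and 0.21 for TNF. Probes of such close relatives may share sequence, so these values are uncertain, as are those of Serpinb9 and Serpinb6b to that extent.

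Of 21 other cystatins 3 were tested (Cst6, Stfa2l1 and Stfa3), with CpG differences of -0.12 log2 for Cst6 to 0.16 for Stfa2l1 and TNF differences of up to 0.26 log2 for Stfa3 and 0.21 for Stfa2l1. Of 18 other serpins 5 were tested, the largest differences being those of Serpina3n (0.10 log2) and Serpini1 (-0.10) with CpG, and of Serpinf1 (-0.58) and Serpini1 (-0.14) with TNF. Limma called none of either list for CpG or TNF in solvent, with or without the block; at an unadjusted p under 0.05 there was 0 for CpG in both lists and, for TNF, 1 serpin. The list medians for CpG and TNF were 0.08 and 0.21 log2 for the cystatins and 0.03 and -0.02 log2 for the serpins. Of 14 WAP and Kunitz inhibitors 9 were tested, and the planned limma fit called 0 for either stimulus (0 at an unadjusted p under 0.05 for CpG and 1 for TNF, medians 0.03 and 0.01 log2). With the block it called Spint1, a Kunitz-type inhibitor of hepatocyte growth factor activator, as lower with both. That fit called 1667 of 12192 genes lower with CpG and 240 with TNF. Spint1 went from 9.25 and 9.99 log2 in DMSO to 8.11 and 9.03 with CpG and 8.30 and 9.22 with TNF. The differences were -1.05 log2 with CpG (limma adjusted p = 0.305, 0.000876 with the block) and -0.86 log2 with TNF (0.790, 0.00611 with the block). Next in size were Wfdc21 with CpG (0.34 log2) and Spint2 with TNF (0.52 log2), neither called. Spint1 was thus lower where Serpinb9 and Serpinb6b were higher, in both experiments.

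**Figure D4:**
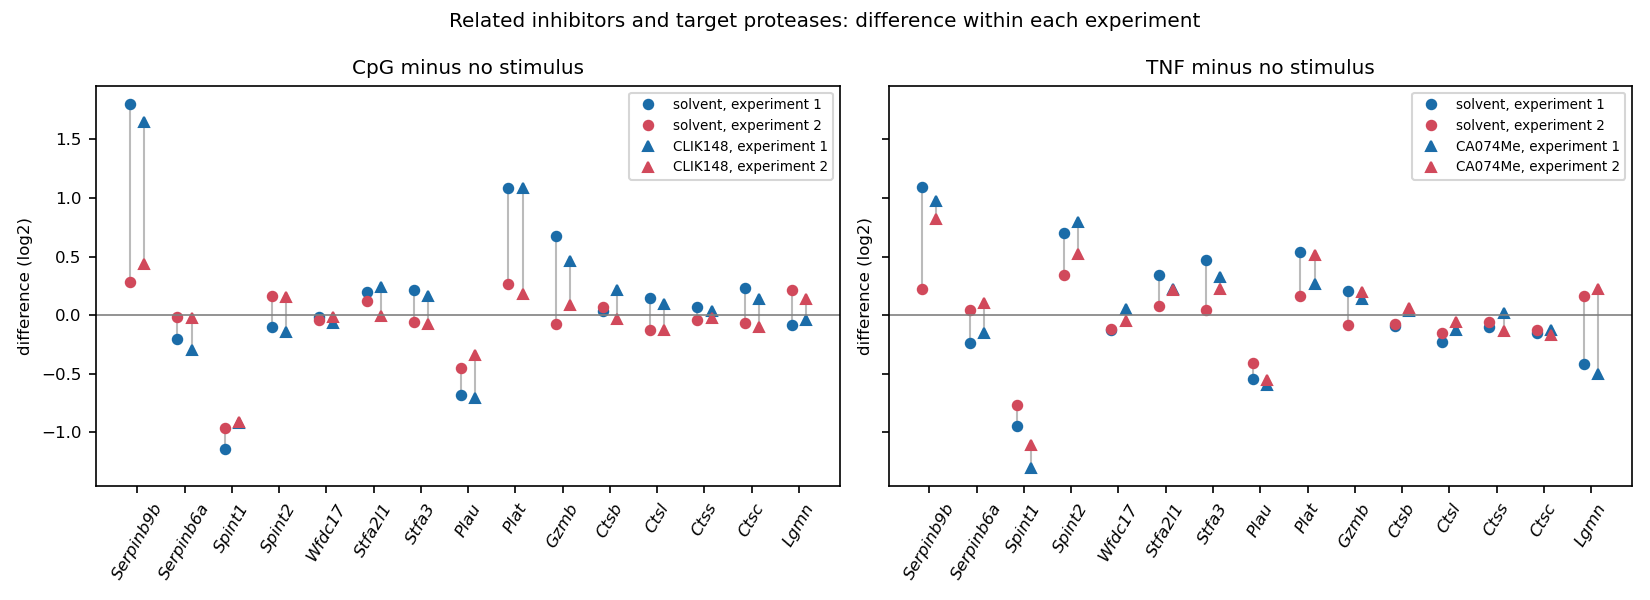
Difference from unstimulated cells (log2) for selected related inhibitors and target proteases in each experiment, for CpG and TNF. Ctsk and Ctsf, the cysteine proteases with the largest differences in solvent, are not drawn. Circles are solvent cultures and triangles cultures with CLIK148 (left) or CA074Me (right), blue experiment 1 and red experiment 2. Spint1 and Plau are below 0 at every point, Serpinb9b is above 0, and the cathepsin genes Ctsb, Ctsl and Ctss lie close to 0.

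Most of the proteases that these inhibitors act on differed little between stimulated and unstimulated cells. All 11 listed cysteine proteases were tested and limma called 0 for either stimulus, with or without the block, with a median of 0.01 log2 for CpG and -0.13 log2 for TNF. The largest differences were those of Ctsk (-0.32 log2 with CpG, -0.33 with TNF) and Ctsf (-0.28 and -0.24). Ctsb, the target of CA074Me, differed by 0.05 log2 with CpG and -0.09 with TNF, and Ctsl, the target of CLIK148, by 0.01 and -0.19 log2. Ctsc, the partner of cystatin F, differed by 0.09 and -0.14 log2. At an unadjusted p under 0.05 there was 1 of 11 for CpG and 0 for TNF, beside 18.2% and 7.21% of all genes. The planned fit called 1.92% and 0.115% of all genes. Ctsb, Ctsl, Ctsc and Gzmb are named for their roles and not for the size of their differences, after their values were seen. Of 11 serine proteases 8 were tested, with 0 called in the planned limma fit (1 at an unadjusted p under 0.05 for CpG and 0 for TNF) and medians of 0.07 and 0.06 log2. With the block Plau, the urokinase that Serpinb2 inhibits, differed by -0.57 log2 with CpG (limma adjusted p = 0.339, 0.00872 with the block) and by -0.48 log2 with TNF (0.803, 0.0450 with the block), and so fell in that fit with both. Plau measured 9.64 and 9.11 log2 in DMSO, 8.95 and 8.66 with CpG, and 9.09 and 8.70 with TNF. Its groups did not overlap with either stimulus, while Serpinb2 was higher in the same arrays. Plat, the tissue plasminogen activator, gave 0.67 log2 with CpG (limma adjusted p = 0.232) and 0.35 log2 with TNF. Its level was low, with a mean of 7.31 log2 (6.91 to 8.06), below the overall median of 7.52. Gzmb, the target of Serpinb9, differed with CpG by 0.60 log2 (SE 0.10) in experiment 1 and 0.01 in experiment 2 in the added model.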

How the data were processed

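Per the labels' protocols, each culture gave 100 ng of RNA, amplified with IVT Express chemistry for Affymetrix arrays. The deposited log2 values were made by the authors with RMA in R 3.0.1, per the submitters' processing notes, which corrects background, normalises quantiles and summarises probe sets; its settings were not stated. Array medians lay between 7.48 and 7.54 log2 and replicates correlated at 0.981 to 0.992 over 45101 probe sets, of which 34945 name 1 gene and 932 several.

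Genes above the overall median of 7.52 log2 on at least 2 arrays were tested with limma 3.58.1 in R 4.3.3, 14 arrays and 7 groups in 1 fit, 2-sided, with Benjamini-Hochberg adjustment over 12192 genes in each of 12 comparisons, called under 0.05. The fits were tested on simulated data. Replicate differences correlated at 0.455 to 0.935 over 21 pairs of groups, and the design text names independent experiments, so the replicate number pairs arrays. The block fit has 6 residual degrees of freedom. With 2 arrays per group their number limits precision, and the median half-width of a 95% interval was 0.32 log2 (0.22 with the block).

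The members, lists and tests were chosen with earlier results of these data known. The rule for naming took all members in every comparison, up to 4 called genes of each list or otherwise its 2 largest differences, and the 3 most correlated genes of each member. The text applies it to lists for the stimuli in solvent only, and gives members with small differences by their range. Added models and alternatives tried (block, no filter on dim genes, cyclic loess, mean of probe sets, groups of the comparison only, array weights, each array of the compared groups left out) are described in the closing section.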

Additional observations from a re-analysis of the deposited data

Results flagged for a closer look

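The response to a stimulus differed between the experiments, by the test of the difference in the added limma model, for 5 members with CpG (11.5% of all genes were called this way) and 4 with TNF (1.25%). For CpG the response in experiment 1 exceeded that in experiment 2 by 1.63 log2 for Serpinb9, 1.27 for Serpinb2, 1.23 for Cst7, 1.14 for Serpinb6b and 0.39 for Slpi (limma adjusted p 2.33e-05, 0.00126, 1.11e-05, 0.000204 and 0.0125). For TNF it did so by 1.01 log2 for Cst7, 0.99 for Serpinb6b, 0.87 for Serpinb9 and 0.58 for Slpi (0.00152, 0.00851, 0.0250 and 0.0121). These p-values cover the spread between parallel cultures of 2 experiments.

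Leaving out single arrays ended some of these calls. Slpi with CpG was not called without experiment 1 of DMSO with CpG (0.38 log2, 0.0581) or experiment 2 of CLIK148 with CpG (0.34, 0.0551). With TNF, Serpinb6b was not called without experiment 1 of DMSO with TNF (0.95 log2, 0.0501), and Slpi was not without experiment 2 of DMSO with TNF (0.55, 0.0572) or experiment 1 of CA074Me with TNF (0.51, 0.0589). Serpinb9 with TNF lost its call without DMSO, CLIK148 or CA074Me of experiment 2, either array of DMSO with TNF, or CA074Me with TNF of experiment 1 (adjusted p 0.0548 to 0.120), and was 0.55 log2 without DMSO with TNF of experiment 2. Serpinb2 with TNF (0.44 log2) was called without CA074Me with TNF of experiment 2, at 0.79 log2 (0.0445). Both Cst7 differences and the CpG differences of Serpinb9, Serpinb6b and Serpinb2 stayed called without each of the 14 arrays in turn.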

How the results depend on the processing

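Of 1024 differences of single members under the alternative settings, 837 kept direction and side of the threshold and shifted by no more than the planned SE. Another 5 became called, and 182 stayed uncalled but shifted by more than that SE or changed sign. In all, 133 uncalled values changed sign and 0 called values reversed. With the replicate block, 2 members were called for CpG in solvent, 1 for CpG after CLIK148 and 1 for TNF after CA074Me, each against 0 in the planned fit, and the block changed no other call of a member. Leaving out single arrays gave 0 to 1 members called for CpG in solvent: without DMSO with CpG of experiment 2, Serpinb9 was called at 2.11 log2 (limma adjusted p = 0.0343). Every other alternative left the count of called members at 0 in all 12 comparisons; in these 12, arrays were left out only from the groups compared. Serpinb9, Serpinb6b, Serpinb2 and Cst7 stayed above 0 in 10 of 10 alternatives for each of the 4 stimulus comparisons, but sizes varied: in solvent, Serpinb9 1.12 to 2.11 log2 (CpG) and 0.76 to 1.54 (TNF), Serpinb6b 0.61 to 1.85 and 0.73 to 1.96, Serpinb2 0.42 to 1.64 and 0.39 to 1.33, and Cst7 0.26 to 1.01 and 0.33 to 1.08; CpG after CLIK148 1.16 to 1.84, 0.64 to 1.64, 0.36 to 1.62 and 0.20 to 0.95; and TNF after CA074Me 1.05 to 2.03, 0.96 to 2.38, 0.70 to 1.03 and 0.62 to 1.09, in the same order. The number of arrays, 2 per group, limits every interval.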
